A study of Mus musculus with 3 samples.

Results

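The nuclear genes of the mitochondrial respiratory chain were followed through the T cells of 2 mouse tumours. They were taken by symbol, as every gene whose name starts with Nduf, Sdh, Uqcr, Cox4, Cox5, Cox6, Cox7, Cox8 or Atp5. Of 31053 genes in the count table, 96 symbols matched, 1 symbol that stands for 2 gene IDs was skipped (Atp5o), and 95 genes remained. They comprised 7 core and 29 accessory subunits of complex I, 4 subunits of complex II, 8 of complex III, 11 common and 9 tissue-restricted or alternative genes of complex IV, 15 of ATP synthase and 12 assembly factors. The 13 protein-coding genes of the mitochondrial genome (mt- genes) were set beside them.

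The respiratory chain passes electrons from NADH and succinate to oxygen through complexes I to IV and pumps protons across the inner mitochondrial membrane, and ATP synthase, sometimes called complex V, uses the proton gradient to make ATP. Complexes I, III, IV and V are built from proteins of both genomes, while complex II is encoded in the nucleus alone. In T cells, respiratory capacity is known to change with activation, memory formation and exhaustion, and regulatory T cells are known to rely on respiration.

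The cells were tumour-infiltrating lymphocytes of C57BL/6 mice that carried MC38-Ova colon carcinoma or B16-Ova melanoma under the skin, both lines expressing ovalbumin, and were taken on day 14. Cells had been sorted as TCRβ+ CD3+ CD90.2+ CD11b-, and the 2 tumours were told apart by hashtag within 1 droplet capture. Surface PD-1, Tim-3 and binding of L-Pha, a plant lectin for β1,6-branched N-glycans read through a biotin tag, were counted in the same cells. How many mice stand behind each hashtag is not given, so there was 1 pool of cells per tumour, and mouse age and sex are not given either. The T cell receptor data were not analysed here.

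Of 19912 barcodes, 18429 passed the cell filter, and 14992 had 1 clear hashtag (8407 MC38-Ova and 6585 B16-Ova). Transcripts then sorted 7562 of these into CD8 cells (2544 in MC38-Ova and 1792 in B16-Ova), Treg cells (960 and 777) and other CD4 cells (736 and 753), and 7430 fell in no class. The summed RNA UMIs (unique molecular identifiers, about 1 per captured RNA molecule) of the 6 class and pool sums ran between 3626987 and 20937848. Foxp3 and the other fixed Treg markers summed to 2968 and 3090 CPM (counts per 1000000 RNA UMIs) in Treg cells of MC38-Ova and B16-Ova, against 980 and 847 CPM in CD4 cells, whose Foxp3 was 0 by rule. T cell markers summed to between 4098 and 4627 CPM in all 6 sums. Markers of other cells were low but uneven: all 5 melanoma markers were detected in every sum, at 30 to 328 CPM with the highest sum in B16-Ova CD4 cells, and the 4 stromal markers reached 239 CPM in MC38-Ova Treg cells. Of the fixed markers of other cells, Ms4a1, Krt8 and Krt19 were at 0 in every sum, and the part of such RNA in the results below was not tested.

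Promoters of 77 of the 95 genes were present in the RefSeq table (GRCm38.p6), with 82 entries, and the 150 bases before each start site were searched on both strands for short words of 4 factors known to act on these genes. The word of NRF1, TGCGCATGC, stood in 7.32% of the entries, against 1.52% of all 32851 promoters in the table. The YY1 word AAGATGGCG stood in 9.76% against 1.40%, the ETS (GABPA) word CCGGAAGT in 6.10% against 3.89%, and the ERR word TCAAGGTCA in 2.44% against 0.423%. At least 1 of the 4 words was found in 25.6% of the entries, against 6.94% of all promoters. A match is a description of letters and was not tested as a binding site. The 6 windows below show the words in genes that recur in the results (Ndufaf4, Ndufa6, Atp5h and Uqcr11) and in 1 example each for YY1 and ERR (Atp5j and Atp5g3). Each is written 5′ to 3′ toward the gene, ends at the base before the RefSeq start site, and has the word, or its reverse complement, in capitals.

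Ndufaf4 (chr4:24897933-24898082, plus strand): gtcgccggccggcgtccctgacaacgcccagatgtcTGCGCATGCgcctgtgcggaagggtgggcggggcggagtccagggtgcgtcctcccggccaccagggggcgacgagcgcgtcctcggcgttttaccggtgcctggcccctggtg
Ndufa6 (chr15:82354292-82354441, minus strand): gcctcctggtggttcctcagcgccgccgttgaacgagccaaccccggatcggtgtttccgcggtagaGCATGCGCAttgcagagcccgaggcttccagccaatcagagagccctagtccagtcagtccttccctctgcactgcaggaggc
Atp5h (chr11:115419920-115420069, minus strand): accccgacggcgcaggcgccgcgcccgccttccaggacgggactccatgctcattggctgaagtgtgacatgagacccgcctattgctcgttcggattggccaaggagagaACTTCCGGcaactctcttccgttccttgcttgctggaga
Uqcr11 (chr10:80406822-80406971, minus strand): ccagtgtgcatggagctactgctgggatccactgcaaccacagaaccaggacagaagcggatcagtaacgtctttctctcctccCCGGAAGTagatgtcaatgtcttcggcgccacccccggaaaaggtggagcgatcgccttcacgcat
Atp5j (chr16:84834977-84835126, minus strand): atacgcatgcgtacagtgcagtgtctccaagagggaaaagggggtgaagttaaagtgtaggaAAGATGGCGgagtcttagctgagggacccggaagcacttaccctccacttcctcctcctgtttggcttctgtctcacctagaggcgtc
Atp5g3 (chr2:73911327-73911476, minus strand): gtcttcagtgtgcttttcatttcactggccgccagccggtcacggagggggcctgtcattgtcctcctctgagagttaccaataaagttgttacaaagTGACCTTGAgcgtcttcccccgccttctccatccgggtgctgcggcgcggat

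The first base in capitals lies 114 bases before the start site in Ndufaf4, 83 in Ndufa6, 39 in Atp5h, 66 in Uqcr11, 88 in Atp5j and 52 in Atp5g3. The words read on the gene's strand in Ndufaf4, Uqcr11 and Atp5j, and on the other strand in Ndufa6, Atp5h and Atp5g3. Atp5j lies head to head with Gabpa, the gene of an ETS factor, and the annotation has them overlap on opposite strands.

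As 1 sum, the 95 genes held 2.38% and 2.53% of the RNA UMIs of CD8 cells from MC38-Ova and B16-Ova. They held 2.27% and 2.34% in Treg cells, and 2.25% and 2.16% in CD4 cells. CD8 cells were highest and CD4 cells lowest in each pool, and the ranges of the 3 classes did not overlap. The 13 mt- genes had another order: 1.67% and 1.56% in CD8 cells, 1.38% and 1.41% in Treg cells, and 1.62% and 1.69% in CD4 cells. Treg cells thus had the lowest mt- share of the 3 classes in both pools, and the highest mt- share was that of CD8 cells in MC38-Ova and of CD4 cells in B16-Ova. The cell filter had left out cells above 10% mt- UMIs, 515 barcodes among those with at least 500 genes. The mt- shares and the mt- folds below are therefore of cells within that limit. Per UMI of the 95 nuclear genes, mt- genes had 0.701 and 0.617 UMIs in CD8 cells, 0.606 and 0.603 in Treg cells, and 0.723 and 0.781 in CD4 cells. Counting intervals of these shares were narrow (for example 2.37% to 2.38% in MC38-Ova CD8 cells, exact binomial, 95%), and they cover counting error only.

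**Figure D1:**
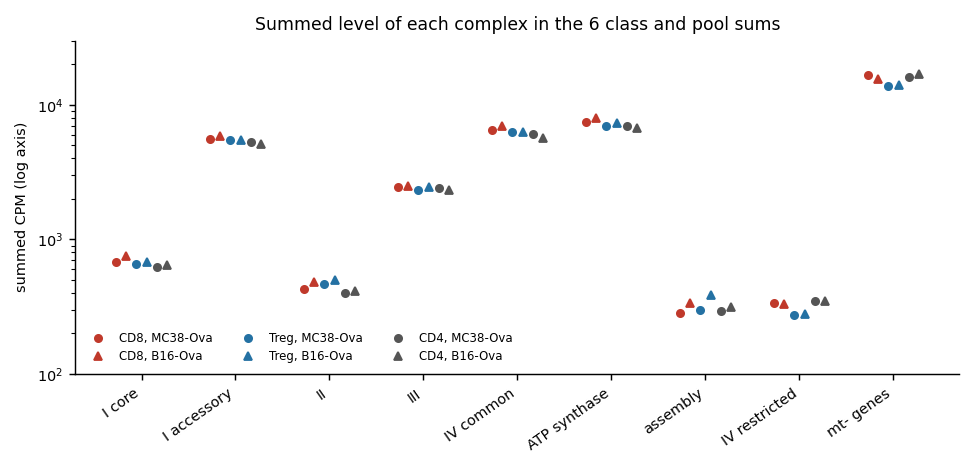
Summed CPM (log axis) of each complex, of the assembly factors and of the mt- genes in the 6 class and pool sums; circles are MC38-Ova, triangles B16-Ova, and each point is 1 sum of cells. For ATP synthase the CD8 points stand at 7475 and 8055 CPM, above the Treg points at 6940 and 7328 and the CD4 points at 7014 and 6736.

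Common complex IV genes summed to 6561 and 6985 CPM in CD8 cells, 6251 and 6262 in Treg cells, and 6086 and 5674 in CD4 cells of MC38-Ova and B16-Ova. Accessory complex I genes summed to 5548 and 5857 CPM in CD8 cells, 5488 and 5484 in Treg cells, and 5309 and 5113 in CD4 cells. Both groups were highest in CD8 and lowest in CD4 cells of each pool. Complex III and ATP synthase were also highest in CD8 cells of each pool, but in MC38-Ova their lowest sums were those of Treg cells (2313 against 2406 CPM in CD4 cells for complex III). Complex II, the entry point for electrons from succinate, summed to 424 and 481 CPM in CD8 cells, 462 and 501 in Treg cells, and 398 and 414 in CD4 cells. The 12 assembly factors summed to 285 and 338 CPM in CD8 cells, 299 and 385 in Treg cells, and 295 and 316 in CD4 cells. In these plain CPM, Treg cells stood above both other classes in each pool for complex II and the assembly factors. That order depends on the scaling: after the TMM scaling used for the tests below, complex II summed to 447 and 512 in CD8 cells and 450 and 482 in Treg cells, so that CD8 cells were higher in B16-Ova, and the assembly factors to 300.2 and 360 in CD8 cells and 291 and 371 in Treg cells, so that CD8 cells were higher in MC38-Ova.

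The share also followed the amount of RNA in a cell. When the cells of each class and pool were split into quartiles of RNA UMIs, the 95 genes took 2.03%, 2.19%, 2.35% and 2.53% of the UMIs of MC38-Ova CD8 cells, lowest to highest quartile. In B16-Ova CD8 cells the 4 shares were 1.97%, 2.12%, 2.45% and 2.81%. CD4 cells of B16-Ova had 1.58%, 1.98%, 2.10% and 2.37%, and the order was the same in the other 3 sums, where the lowest quartiles held 1.67% to 1.77% and the highest 2.45% to 2.52%. Across cells, Spearman's rho between a cell's share and its RNA UMIs was between 0.41 and 0.59 over the 736 to 2544 cells of a sum, a description in which the count of RNA UMIs enters both measures. The mt- share went the other way, with 3.04%, 1.63%, 1.50% and 1.54% in B16-Ova CD4 cells and 2.06%, 1.74%, 1.62% and 1.38% in B16-Ova CD8 cells. Its rho with RNA UMIs was between -0.19 and -0.32.

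Gene by gene the split was as plain. Of 87 of the 95 genes with at least 100 UMIs, 68 had a higher CPM in the top than in the bottom RNA quartile in all 6 sums (78.2%), against 11.5% of 9901 genes, and none was lower in all 6, against 26.2% of all genes. All 13 mt- genes were lower in all 6. The mean log2 ratio of top over bottom quartile had a median of 0.52 over the 87 genes, -0.73 over the mt- genes and -0.19 over all genes. Common complex IV genes were higher in all 6 sums in 11 of 11 cases and ATP synthase genes in 14 of 15, but assembly factors in 2 of 12. The medians of the mean log2 ratio were 0.58, 0.52 and 0.27 in these 3 groups. These are values of quartiles within a sum, not of replicates, and were not tested.

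Some genes stood out from this, chosen here after their values were seen. Ndufc1, an accessory subunit of complex I, had the highest mean log2 ratio of top over bottom quartile at 1.09, and Cox5a, a common subunit of complex IV, had 1.00. Atp5g1, which encodes the proton-carrying c subunit of ATP synthase, had 0.96. At the other end stood Atp5s, a coupling factor of ATP synthase, at -0.44, Ndufs1, the largest core subunit of complex I, at -0.20, and Sdhaf1 at -0.13. The hinge subunit of complex III, Uqcrh, had -0.05 and Cox7a2l 0.01, means that hide a split by class. Both genes were lower in the top than in the bottom quartile of CD8 cells. Cox7a2l had 290 against 383 CPM in MC38-Ova and 275 against 394 in B16-Ova CD8 cells. Uqcrh had 815 against 1034 and 736 against 956. In Treg and CD4 cells of both pools, both genes were higher in the top quartile. Cells with more RNA were also more often cycling: the share of cells with at least 2 UMIs of 10 proliferation genes was 15.4%, 18.4%, 35.1% and 63.1% over the 4 quartiles in MC38-Ova CD8 cells, and 16.1%, 23.2%, 45.3% and 83.5% in B16-Ova CD8 cells. This share itself grows with the UMIs of a cell. Cycling cells had 2.41% to 2.77% of UMIs in the 95 genes over the 6 sums, and the other cells 2.05% to 2.23%.

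**Figure D2:**
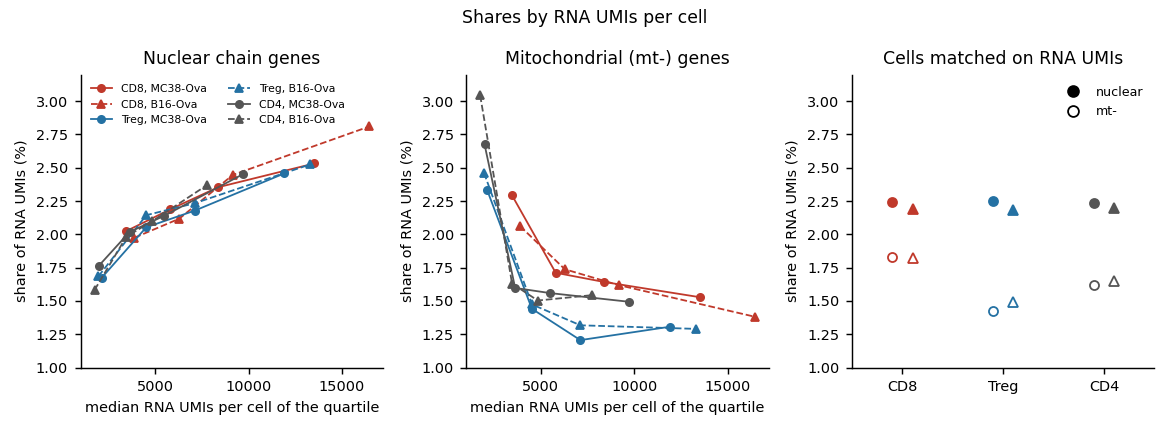
Share of RNA UMIs in the 95 nuclear genes (left) and in the 13 mt- genes (middle) against the median RNA UMIs of each RNA quartile, for 3 classes and 2 pools; right, both shares after cells were matched on RNA UMIs. The nuclear shares of the classes lie along 1 rising band and come to 2.19% to 2.25% in matched cells, while the mt- shares of CD8 cells (1.83% and 1.82%) stay above those of Treg cells (1.42% and 1.49%).

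Per cell, the 95 genes gave a median of 155 and 168 UMIs in CD8 cells of MC38-Ova and B16-Ova, 122 and 127 in Treg cells, and 90 and 81 in CD4 cells. Median RNA UMIs differed between the classes as well, at 6952.5 and 7358 per cell in CD8 cells of MC38-Ova and B16-Ova, 5839.5 and 5695 in Treg cells, and 4528 and 4107 in CD4 cells. Therefore 539 cells were drawn from each sum so that all 6 had the same numbers in each of 10 bins of RNA UMIs, an alternative chosen after seeing the data. In these matched cells the 95 genes held 2.24% and 2.19% of the UMIs in CD8 cells, 2.25% and 2.19% in Treg cells, and 2.23% and 2.20% in CD4 cells. The ranges of the 3 classes overlapped. The mt- shares were apart: 1.83% and 1.82% in CD8 cells, 1.42% and 1.49% in Treg cells, and 1.62% and 1.65% in CD4 cells.

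The CD8 cells were compared with CD4 cells across both pools with edgeR's quasi-likelihood test. Pools entered as blocks, and p-values were adjusted by Benjamini and Hochberg's method over every gene in the fit. Of the 95 genes, 89 could be tested. Ndufaf4, which helps to assemble complex I (chromosome 4, 24898083 to 24905001), had 28.8 and 34.8 scaled CPM in CD8 cells of MC38-Ova and B16-Ova, against 17.2 and 22.1 in CD4 cells. Scaled CPM are divided by edgeR's TMM factors, which set the bulk of genes level between sums. Ndufs8, an iron-sulfur core subunit of complex I (chromosome 19, 3908863 to 3912774), had 110 and 117 scaled CPM in CD8 cells, against 80.9 and 82.0 in CD4 cells. For both genes the CD8 values lay above the CD4 values without overlap. The genes were chosen by the test on these same values, so this adds nothing to it. Ndufaf4 rose by a log2 fold of 0.70 ± 0.14 (SE, adjusted p = 0.042) and Ndufs8 by 0.48 ± 0.09 (adjusted p = 0.044).

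These 2 genes were all that passed, 2.25% of the 89, against 2.00% of 11178 genes called higher, and none was called lower, against 2.67%. The median log2 fold of the 89 was 0.27, against -0.01 over all genes, and 81 of the 89 were higher in CD8 cells in both pools, against 3768 of the 11178 genes. Without adjustment 50 of the 89 were higher and 1 lower at p under 0.05, and DESeq2 called 6 higher. Here and below, counts at an unadjusted p and counts by DESeq2 stand without the share over all genes. No excess is read from them. By complex, the median was 0.33 for common complex IV genes, with 11 of 11 higher in both pools, 0.29 for ATP synthase with 14 of 15, and 0.28 for accessory complex I with 29 of 29. Complex III (8 of 8) and complex II (4 of 4) had medians of 0.23 and 0.22. No mt- gene was called (2 at an unadjusted p under 0.05, none by DESeq2). Their median log2 fold was 0.12, with 0.18 in MC38-Ova and 0.05 in B16-Ova alone, and 0.24 in cells matched on RNA UMIs.

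The fold depends on the scaling and on RNA per cell. With plain library totals in place of TMM factors, an alternative chosen after seeing the data, the median log2 fold of all genes was -0.13 and that of the 89 genes 0.15; this setting moves every gene by the same amount. In cells matched on RNA UMIs, the median of the genes tested was 0.05, none was called (4 at an unadjusted p under 0.05), and Ndufaf4 and Ndufs8 had log2 folds of 0.53 and 0.20 (adjusted p = 0.24 and 0.38). Ribosomal protein genes, which also differ between the classes, held 26.6% and 28.5% of UMIs in CD8 cells against 24.2% and 23.6% in CD4 cells, and 33.0% and 42.0% of CD8 cells were cycling against 24.7% and 21.2% of CD4 cells. The part of either in the difference was not tested.

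In Treg against CD4 cells none of the 89 nuclear genes was called (7 higher and 3 lower at an unadjusted p under 0.05, none by DESeq2), against 1.87% of all genes higher and 1.00% lower, and the median log2 fold was 0.05. Sdhb, the iron-sulfur subunit of complex II, had 228 and 234 scaled CPM in Treg cells of MC38-Ova and B16-Ova, against 177 and 173 in CD4 cells, a log2 fold of 0.40 ± 0.09 that did not pass (adjusted p = 0.081). In CD8 cells Sdhb had 216 and 233. It therefore stood lowest in CD4 cells in both pools, and the CD8 and Treg ranges overlapped.

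All 13 mt- genes were lower in Treg than in CD4 cells in both pools and at an unadjusted p under 0.05, with a median log2 fold of -0.30. The complex I subunit mt-Nd2 was the 1 that passed, with 364 and 429 scaled CPM in Treg cells against 501 and 576 in CD4 cells, and fell by 0.44 on the log2 scale (SE 0.08, adjusted p = 0.049). It also passed in cells matched on RNA UMIs, where the log2 fold was -0.38 (adjusted p = 0.040), but not without the pool as a block (-0.44, adjusted p = 0.23), where no mt- gene was called.

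Between CD8 and Treg cells genes of both genomes were called. Of the 89 nuclear genes, 7 were called higher in CD8 cells (7.87%, against 6.09% of all genes) and 1 lower (1.12%, against 7.85%), and 10 of the 13 mt- genes were called higher. DESeq2 called 6 of the nuclear genes higher and 1 lower, and the same number of mt- genes. Without the pool as a block 4 of the 13 mt- genes were called higher. The median log2 fold was 0.23 for the 89 genes, 0.39 for the mt- genes and 0.01 for all genes, and 75 of the 89 were higher in CD8 cells in both pools, against 4265 of all genes.

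Cox7a2l, a subunit relative that links complexes III and IV in respirasomes and of which C57BL/6 mice carry a shortened form (chromosome 17, 83501918 to 83517330), had 349 and 350 scaled CPM in CD8 cells of MC38-Ova and B16-Ova, against 261 and 263 in Treg cells. CD4 cells had 336 and 335, so Treg cells stood below both. It rose by a log2 fold of 0.42 ± 0.08 in CD8 cells (adjusted p = 0.023), and Treg over CD4 cells gave -0.35 ± 0.08 (adjusted p = 0.093). A group of 3 ATP synthase genes also passed in CD8 over Treg cells. Atp5h, a subunit of the peripheral stalk (chromosome 11, 115415689 to 115419962), had 649 and 660 scaled CPM in CD8 cells against 493 and 513 in Treg cells, a log2 fold of 0.38 ± 0.08 (adjusted p = 0.027). Atp5g1 had 285 and 341 against 207 and 245 (log2 fold 0.47 ± 0.11, adjusted p = 0.040), and Atp5b, the catalytic β subunit, had 552 and 688 against 452 and 500 (0.38 ± 0.09, adjusted p = 0.045).

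Complex I added an assembly factor and a pair of accessory subunits. Ndufaf4 had 28.8 and 34.8 scaled CPM in CD8 cells against 16.5 and 19.8 in Treg cells, the largest fold of the nuclear genes called higher (log2 0.81 ± 0.13, adjusted p = 0.011). Ndufa10, a subunit from the deoxyribonucleoside kinase family (chromosome 1, 92439010 to 92473860), had 111 and 124 against 80.9 and 88.3 (0.47 ± 0.10, adjusted p = 0.026). Ndufa6, an accessory subunit of the LYR protein family (chromosome 15, 82350140 to 82354322), had 334 and 296 against 270 and 232 (0.33 ± 0.09, adjusted p = 0.049).

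The 1 gene that was lower in CD8 cells was Sdhaf1, the LYR protein that helps to load iron-sulfur clusters into Sdhb (chromosome 7, 30321406 to 30323895). It had 30.0 and 51.2 scaled CPM in CD8 cells of MC38-Ova and B16-Ova, against 46.3 and 123 in Treg cells, and 40.9 and 74.0 in CD4 cells. CD8 cells stood lowest and Treg cells highest within each pool, and the ranges overlapped across pools. It fell by 0.96 on the log2 scale against Treg cells (SE 0.17, adjusted p = 0.014), by 0.62 in MC38-Ova alone and by 1.26 in B16-Ova alone. Against CD4 cells the log2 fold was -0.48 (adjusted p = 0.15). Without the pool as a block the fall against Treg cells did not pass (log2 fold -1.06, adjusted p = 0.28). The annotation has E130208F15Rik overlap Sdhaf1 on the opposite strand, and the strand setting of the counting is not given in the sources used here.

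The mt- genes called higher in CD8 than in Treg cells were 6 of complex I, 2 of complex IV and 2 of ATP synthase. The gene mt-Nd3 had 71.3 and 84.3 scaled CPM in CD8 cells against 44.6 and 58.0 in Treg cells (log2 fold 0.61 ± 0.10, adjusted p = 0.013), and mt-Nd2 574 and 628 against 364 and 429 (0.60 ± 0.08, adjusted p = 0.0067). Both mt-Nd1 and mt-Nd5 had a log2 fold of 0.50 (adjusted p = 0.015 and 0.014). In cells matched on RNA UMIs, 11 mt- genes were called and their median log2 fold was 0.48, while of the nuclear genes 3 were called and the median was 0.11. The share of all genes called in matched cells is not given beside these counts. The nuclear genes that passed there were Cox7a2l (log2 fold 0.50, adjusted p = 0.0063), Atp5h (0.34, adjusted p = 0.034) and Sdhaf1 (-1.02, adjusted p = 0.0026). With plain library totals 1 nuclear gene was called higher and 1 lower, and all genes split into 417 higher and 1244 lower instead of 681 and 877.

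**Figure D3:**
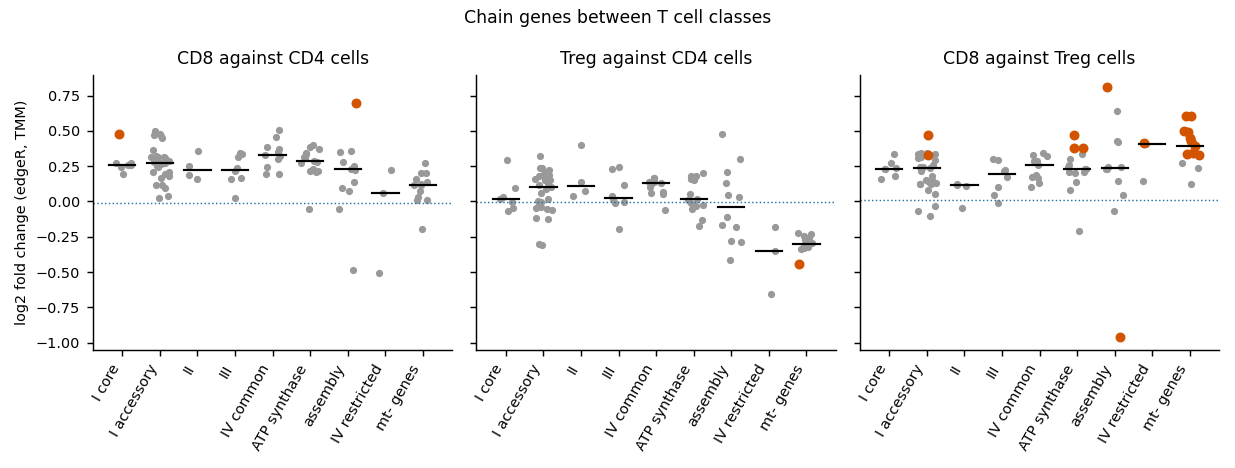
Log2 fold changes of the tested respiratory chain genes by complex for CD8 against CD4, Treg against CD4 and CD8 against Treg cells; each point is 1 gene, orange points passed an adjusted p of 0.05 in edgeR, black bars are group medians and the dotted line is the median of all genes. The mt- genes lie around -0.30 for Treg against CD4 cells and around 0.39 for CD8 against Treg cells, and the medians of the nuclear genes lie at 0.05 and 0.23 in the same panels.

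Ordered by the mean scaled CPM of the 2 pools, 49 of the 89 tested genes ran CD8, Treg, CD4 from high to low, 30 ran CD8, CD4, Treg, 6 ran Treg, CD8, CD4, and 4 had another order. Neighbours in that order did not differ beyond the test for most genes, as the counts above show. Among the genes with the most UMIs of their group, Cox8a, a common subunit of complex IV, had 1280 and 1350 scaled CPM in CD8 cells of MC38-Ova and B16-Ova, 1082 and 1028 in Treg cells, and 1085 and 955 in CD4 cells. Cox4i1, the common form of subunit 4 of complex IV, had 1109 and 1123 in CD8 cells, 940 and 930 in Treg cells, and 1003 and 946 in CD4 cells. Both were highest in CD8 cells without overlap, and neither passed the test.

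ATP synthase was led by Atp5e, the ε subunit, with 938 and 1022 scaled CPM in CD8 cells, 804 and 863 in Treg cells, and 803 and 804 in CD4 cells. Atp5g2, another gene for the c subunit, had 840 and 937 in CD8 cells, 729 and 715 in Treg cells, and 766 and 669 in CD4 cells. Uqcrh, in complex III, had 977 and 890 in CD8 cells, 812 and 792 in Treg cells, and 948 and 885 in CD4 cells, so that here Treg cells were lowest in both pools and the CD8 and CD4 ranges overlapped. In complex I, the core subunit Ndufv2 had 150 and 168 in CD8 cells, 134 and 151 in Treg cells, and 129 and 138 in CD4 cells, and the accessory subunit Ndufa13, also known as GRIM-19, had 507 and 510, 462 and 464, and 440 and 405. Nuclear chain genes are known to have many processed pseudogenes, and how the authors' counting split reads between such copies is not given in the sources used here. The same holds for reads shared with annotated neighbours that overlap Cox4i1, Ndufa13, Ndufaf2, Ndufb6, Ndufs1 and Atp5d.

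The isoforms that other tissues use were close to absent. Cox7b2, Cox8b and Cox8c, known from testis or from heart and skeletal muscle, had no UMI in any of the 6 sums, where 3 UMIs would give 0.143 to 0.827 CPM. Cox4i2, an isoform known from lung and from low oxygen, had 5 UMIs in all, and Ndufa4l2, a gene induced by low oxygen, had 4. The muscle isoform Cox6a2 had 72 UMIs, of which 49 were in MC38-Ova CD8 cells (2.34 CPM, 95% interval 1.73 to 3.09) and 9 in B16-Ova CD8 cells (0.522 CPM, 0.239 to 0.992). The testis isoform Cox6b2 had 118 UMIs and the muscle isoform Cox7a1 88, at 0.870 to 2.82 CPM in each sum for both. Of the 9 genes of this group, Cox7a2l, Cox6b2 and Cox7a1 passed the filter on low counts.

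L-Pha binding split the cells of each class in another way. Over the 4 quartiles of L-Pha UMIs in MC38-Ova CD8 cells, lowest to highest, the 95 genes held 2.23%, 2.30%, 2.40% and 2.47% of RNA UMIs, and in B16-Ova CD8 cells 1.98%, 2.31%, 2.59% and 2.79%. Treg cells had 2.11%, 2.16%, 2.26% and 2.38% in MC38-Ova and 2.14%, 2.28%, 2.32% and 2.44% in B16-Ova. The top quartile was the highest in all 6 sums, CD4 cells included, at 2.33% against 2.13% in the bottom quartile of MC38-Ova and 2.30% against 2.02% in B16-Ova. The mt- share was lower in the top quartile in CD8 cells (1.64% against 1.70% in MC38-Ova, 1.39% against 1.86% in B16-Ova) and in Treg cells (1.26% against 1.64%, 1.30% against 1.71%). In CD4 cells it was 1.59% against 1.65% in MC38-Ova and 1.68% against 1.57% in B16-Ova. Median RNA UMIs stood beside it, at 10614 in the top against 4916.5 in the bottom quartile of MC38-Ova CD8 cells and 13931 against 5383 in B16-Ova CD8 cells, as did the share of cycling cells, at 50.5% against 21.1% and 70.3% against 15.7%.

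**Figure D4:**
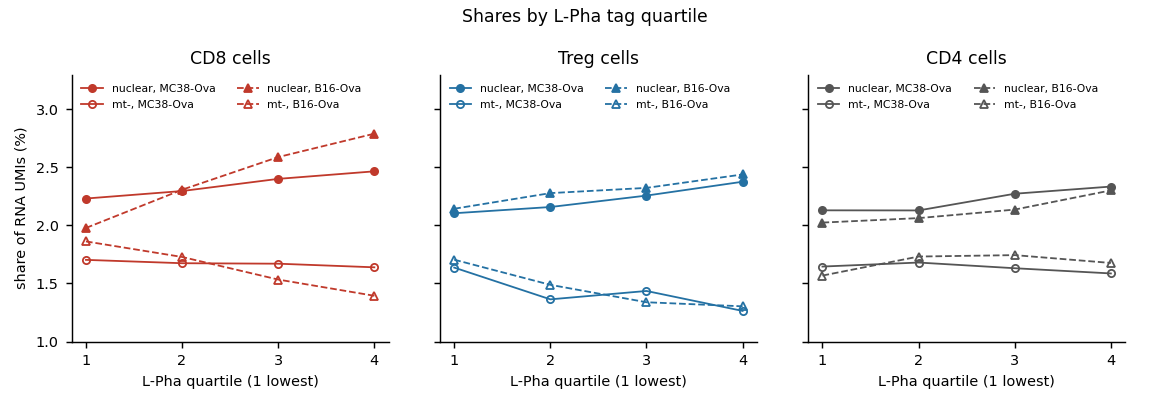
Share of RNA UMIs in the 95 nuclear genes (filled) and the 13 mt- genes (open) over the 4 quartiles of L-Pha UMIs, lowest to highest, in CD8, Treg and CD4 cells; solid lines are MC38-Ova and dashed lines B16-Ova. In B16-Ova CD8 cells the nuclear share is 2.79% and the mt- share 1.39% in the top quartile, against 1.98% and 1.86% in the bottom quartile.

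Gene by gene, few of these differences passed. L-Pha-high against L-Pha-low CD8 cells gave no call among 88 genes (4 at an unadjusted p under 0.05, all higher, and none by DESeq2), against 0.574% of all genes higher and 0.214% lower, with a median log2 fold of 0.26, which was 0.14 in MC38-Ova and 0.33 in B16-Ova alone. L-Pha-high against L-Pha-low Treg cells gave none among 85 (25 higher and 1 lower at an unadjusted p under 0.05, none by DESeq2), against 0.843% higher and 0.785% lower, with a median of 0.20. A pair of mt- genes of complex IV fell in L-Pha-high Treg cells. The gene mt-Co3 had 1704 and 1866 scaled CPM in L-Pha-high Treg cells of MC38-Ova and B16-Ova, against 2612 and 2623 in L-Pha-low Treg cells (log2 fold -0.55 ± 0.08, adjusted p = 0.031). The gene mt-Co1 had 3664 and 3265 against 4894 and 4209 (-0.39 ± 0.06, adjusted p = 0.050, just under the threshold of 0.05), and DESeq2 called 1 mt- gene. Neither passed without the pool as a block (adjusted p = 0.14 for mt-Co3 and 0.21 for mt-Co1).

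In L-Pha-high CD4 cells 4 of 85 nuclear genes rose, 4.71%, against 4.96% of all genes higher and 3.27% lower. Uqcr11, the smallest subunit of complex III (chromosome 10, 80402997 to 80406830), had 231 and 196 scaled CPM in L-Pha-high CD4 cells of MC38-Ova and B16-Ova, against 134 and 111 in L-Pha-low CD4 cells (log2 fold 0.80 ± 0.18, adjusted p = 4.9e-04). Atp5g1 had 331 and 272 against 196 and 206 (0.58 ± 0.17, adjusted p = 0.013). The accessory complex I subunits Ndufb6, with 177 and 136 against 109 and 101, and Ndufa12, with 136 and 113 against 73.9 and 93.4, had log2 folds of 0.57 and 0.58 (adjusted p = 0.034 and 0.047). High and low values did not overlap for any of the 4. These genes were chosen by the test on the same values, so this adds nothing to it. The fit of CD4 cells borrowed its spread wholly from other genes, and DESeq2 called none of the 4.

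When L-Pha quartiles were taken within deciles of RNA UMIs, the medians of the nuclear genes were -0.03 in CD8, -0.09 in Treg and -0.07 in CD4 cells, and no nuclear or mt- gene was called in any class (at an unadjusted p under 0.05, 3, 7 and 0 nuclear genes). The medians of the mt- genes were then -0.07, -0.17 and 0.21, against -0.35, -0.40 and 0.09 before. The value of -0.35 in CD8 cells came mostly from 1 pool, with -0.07 in MC38-Ova and -0.66 in B16-Ova.

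In PD-1-high against PD-1-low CD8 cells the nuclear share was higher too. The 95 genes held 2.45% and 2.73% of RNA UMIs in the top PD-1 quartile of MC38-Ova and B16-Ova, against 2.23% and 2.24% in the bottom quartile. None of 87 genes was called (12 higher and 2 lower at an unadjusted p under 0.05, none by DESeq2), against 1.74% of all genes higher and 0.933% lower, and the median log2 fold was 0.14. Within deciles of RNA UMIs it was 0.01. All 13 mt- genes were lower in PD-1-high cells in both pools, with a median log2 fold of -0.29 (-0.14 in MC38-Ova and -0.39 in B16-Ova), and none was called (4 at an unadjusted p under 0.05, none by DESeq2). Cox7a2l was lower in PD-1-high cells too, while the median of the nuclear genes was positive. It had 305 and 275 scaled CPM in PD-1-high against 376 and 410 in PD-1-low CD8 cells (log2 fold -0.44 ± 0.13, adjusted p = 0.13). In L-Pha-high CD8 cells it had 301 and 275, against 359 and 455 in L-Pha-low CD8 cells (-0.49 ± 0.22, adjusted p = 0.29). Neither difference passed the test.

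Between the tumours there was 1 pool each, so ratios of CPM are given without a test, and a ratio 25% or more above 1, or 20% or more below 1, counted as past the fold. In CD8 cells 87 genes had at least 100 UMIs, and their median MC38-Ova over B16-Ova ratio was 0.917, against 1.000 over all 9758 genes. Of the 87, 73 lay below 1, none was past the fold upward and 5 were past it downward, against 14.1% and 13.7% of all genes. In Treg cells the median of 84 genes was 0.972, against 0.977 for all genes, with 1 past the fold upward and 3 downward, against 12.0% and 12.8%. In CD4 cells the median of 83 genes was 1.029, against 0.986, with 1 upward and 3 downward, against 10.1% and 12.0%. Most ratios of these genes thus stood close to 1. In CD8 cells the median was 1.007 without cycling cells, which were 33.0% of MC38-Ova and 42.0% of B16-Ova CD8 cells, and 1.015 in cells matched on RNA UMIs.

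Sdhaf1 stood furthest from 1 and was lower in MC38-Ova in all 3 classes. It had 28.5 CPM in MC38-Ova CD8 cells, against 48.1 in B16-Ova CD8 cells, a ratio of 0.592 (95% interval 0.532 to 0.658, counting error only). Treg cells had 47.6 CPM in MC38-Ova, against 127 in B16-Ova (0.373, 0.327 to 0.426). CD4 cells had 41.9 CPM in MC38-Ova, against 75.8 in B16-Ova (0.553, 0.455 to 0.671). In cells matched on RNA UMIs the ratios were 0.486, 0.387 and 0.529. Markers of other cells also differed between the tumours. Melanoma markers summed to 29.9 CPM in MC38-Ova against 244 CPM in B16-Ova CD8 cells and to 33.1 against 328 CPM in CD4 cells, lower in MC38-Ova like Sdhaf1, but to 188 against 33.6 CPM in Treg cells. Myeloid markers summed to 58.0 CPM in MC38-Ova against 202 CPM in B16-Ova Treg cells, but to 54.6 against 35.7 CPM in CD8 and 98.1 against 28.9 CPM in CD4 cells. Their part in the Sdhaf1 ratios was not tested.

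Other genes past the fold were fewer and less alike between classes. Ndufa5, an accessory subunit of complex I, had 81.3 CPM in MC38-Ova against 119 CPM in B16-Ova CD8 cells (0.685, 0.642 to 0.731), and ratios of 0.809 in Treg and 0.859 in CD4 cells. Ndufaf2, an assembly factor of complex I, had ratios of 0.680 in CD8 (0.582 to 0.793), 0.755 in Treg (0.569 to 1.000) and 1.26 in CD4 cells (0.906 to 1.77), in Treg and CD4 cells on few UMIs. Sdha, the flavoprotein of complex II, had 78.9 CPM in MC38-Ova against 102 CPM in B16-Ova Treg cells (0.775, 0.689 to 0.873), and ratios of 0.848 in CD8 and 0.872 in CD4 cells. Ndufs1 was at 0.757 in CD4 cells (0.587 to 0.974), against 1.10 in Treg cells (0.896 to 1.34). Ndufaf4 was at 0.780 in CD4 cells, and at 0.874 in CD4 cells matched on RNA UMIs.

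Upward, Ndufa6 was higher in MC38-Ova in all 3 classes, with ratios of 1.14 in CD8 (1.10 to 1.18), 1.15 in Treg (1.08 to 1.24) and 1.10 in CD4 cells (1.02 to 1.19). Ndufv3, a small subunit of the NADH-binding arm, had 1.08, 1.17 and 1.03. Ndufaf1 reached 1.53 in Treg cells (1.08 to 2.20) from 94 UMIs in MC38-Ova and 51 in B16-Ova. Atp5d, the δ subunit of ATP synthase, had 687 CPM in MC38-Ova against 560 CPM in B16-Ova CD4 cells (1.23, 1.16 to 1.30). The mt- genes had medians of 0.999 in CD8, 0.876 in Treg and 0.928 in CD4 cells, and mt-Co1 reached 1.28 in CD8 cells, with 4661 CPM in MC38-Ova against 3643 CPM in B16-Ova.

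**Figure D5:**
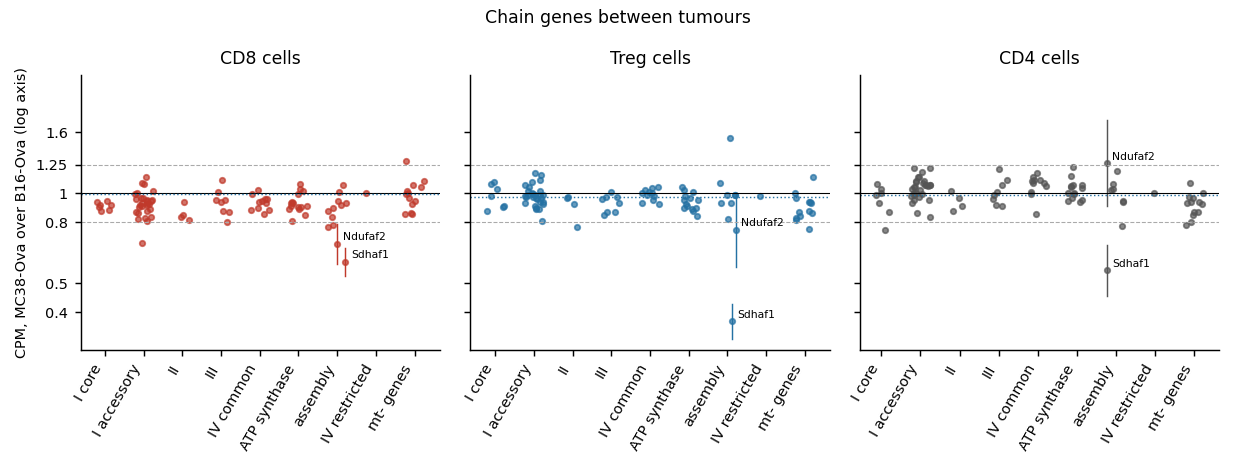
Ratio of CPM, MC38-Ova over B16-Ova (log axis), of respiratory chain genes with at least 100 UMIs, by complex, in CD8, Treg and CD4 cells; each point is 1 gene, dashed lines mark ratios 25% above and 20% below 1, the dotted line the median of all genes, and vertical bars the 95% counting intervals of Sdhaf1 and Ndufaf2. Sdhaf1 lies at 0.592, 0.373 and 0.553 in the 3 classes, below every other gene.

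Genes around the chain gave few calls. Of 13 carriers, exchangers and the ATPase inhibitor, 1 was called higher in CD8 over CD4 cells (7.69%, against 2.00% of all genes) and 2 in CD8 over Treg cells (15.4%, against 6.09%). Slc25a5, an exchanger of ADP and ATP, rose in both (log2 folds 0.45 ± 0.09 and 0.35 ± 0.08, adjusted p = 0.039 and 0.042), and its sister Slc25a4 rose in CD8 over Treg cells (0.58 ± 0.14, adjusted p = 0.039). DESeq2 called 2 of this list in each of these comparisons. Of 19 assembly genes of complexes III and IV outside the rule, 2 were called higher in CD8 over Treg cells (10.5%, 1 by DESeq2): Cox17, a copper chaperone, and Cox10, an enzyme of haem synthesis (0.66 and 0.69, adjusted p = 0.031 and 0.040). Cox17 also rose in PD-1-high CD8 cells (0.90 ± 0.14, adjusted p = 0.025), as 1 of 19 (5.26%, against 1.74%, and 1 by DESeq2). Of 17 genes of the citric acid cycle and pyruvate dehydrogenase, 1, Idh3a, was called higher in CD8 over Treg cells (0.49 ± 0.10, adjusted p = 0.028), a share of 5.88% that lies near the background of 6.09%. Of 16 regulators of mitochondrial biogenesis, 1 was called lower there (6.25%, against 7.85%): Polg, the polymerase of mitochondrial DNA, had 10.1 and 11.2 scaled CPM in CD8 cells against 17.2 and 18.8 in Treg cells (log2 fold -0.76 ± 0.14, adjusted p = 0.016). DESeq2 called neither Idh3a nor Polg.

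The other comparisons of these 4 lists gave calls in L-Pha-high CD4 cells alone, where Atpif1, Cycs and Slc25a4 (3 of 12 tested carriers and exchangers, 25%) and Idh2 (1 of 17, 5.88%) were called higher, against 4.96% of all genes, with log2 folds of 0.71, 0.60, 0.87 and 1.07. DESeq2 called none of these 4. Of the 10 proliferation genes, 9 were called higher in L-Pha-high CD4 cells (none by DESeq2), 3 in L-Pha-high Treg cells (against 0.843% of all genes, 4 by DESeq2), 3 in CD8 over CD4 cells (6 by DESeq2), 1 in Treg over CD4 cells (4 by DESeq2) and 1 in PD-1-high CD8 cells (none by DESeq2). None was called in CD8 over Treg cells by either tool (1 at an unadjusted p under 0.05), and in L-Pha-high CD8 cells edgeR called none while all 10 had an unadjusted p under 0.05 and DESeq2 called 4.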

How the data were processed

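T cells from MC38-Ova and B16-Ova tumours were captured in 1 droplet reaction. The authors deposited raw UMI counts per gene, hashtag and antibody tag for each barcode; per the submitters' processing notes they used Cell Ranger 3.1.0 with mm10, R 3.6.1 and Seurat 3.1.0. The 95 genes and all other lists were chosen with earlier results of these data known.

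Cells had at least 500 genes and at most 10% mt- UMIs, with the larger hashtag at 150 UMIs or more and at least 3 times the other. No doublet caller was run: barcodes with both hashtags fell out, as did cells with Cd8a or Cd8b1 beside Cd4 or Foxp3. Treg cells could carry Cd4, so doublets of Treg and CD4 cells, or of 1 class within a tumour, were not removed. CD8 cells had 2 or more UMIs of Cd8a plus Cd8b1 and no Cd4 or Foxp3, Treg cells 1 or more of Foxp3 and no Cd8a or Cd8b1, and CD4 cells 1 or more of Cd4 and none of the others. UMIs were summed per class and pool (6 sums), or per top and bottom tag quartile, class and pool (4 sums per comparison). The sums were tested with edgeR 4.0.16 (TMM, filterByExpr, quasi-likelihood F-test, pool as a block, R 4.3.3), with p-values adjusted by Benjamini-Hochberg over every gene in a fit and called under 0.05. The tests were also run on simulated counts with 2-fold changes, drawn independently for each sum. That run does not measure the power for the smaller folds of the chain genes, or false calls among sums that share animals. DESeq2 1.42.0 was an alternative. Cells are not replicates, and sums that share a pool may vary less than separate animals. With the pool as a block, p-values measure how far a class or tag difference varied between the 2 pools of 2 tumours. That spread was mostly borrowed across genes, and it does not measure the spread between animals of a tumour. The pool pairs the classes because each pool's classes come from the same animals. Tumour ratios compare 2 sums of 1 pool each, for genes with at least 100 UMIs, with exact conditional 95% intervals; intervals and floors (3 UMIs) cover counting error only. Depth was 3626987 to 20937848 RNA UMIs per sum, which sets the precision of each CPM.

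Genes were named from lists fixed by rule, and not every listed gene is named. Listed were the 2 with the most UMIs per complex and the 4 called with the largest fold each way at 20 CPM or more. The lists also held the 3 largest and smallest tumour ratios and all restricted isoforms. The mt- genes followed the same rules, and each other list gave up to 3 called genes. All nuclear genes called between CD8 and Treg cells are named. Others are named by counts of 5 or fewer or are said to be chosen after their values were seen. Coordinates are GENCODE vM21 (mm10) matched by gene ID (95 of 95), and promoter letters are RefSeq's, GRCm38.p6. Alternatives are named with their effects in the closing section.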

Additional observations from a re-analysis of the deposited data

Results flagged for a closer look

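The median log2 fold of the 13 mt- genes between the top and bottom L-Pha quartile, averaged over the 2 pools, was -0.37 in CD8 cells and -0.41 in Treg cells, against 0.06 in CD4 cells, with opposite signs in both pools. The CD8 value came mostly from 1 pool, with -0.07 in MC38-Ova and -0.66 in B16-Ova, against 0.04 and 0.07 in CD4 cells. In MC38-Ova the opposite sign depends on the scaling, since the plain mt- share was lower in the top quartile of CD8 cells (1.64% against 1.70%) and of CD4 cells (1.59% against 1.65%) alike. The difference between the classes was not tested.

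The MC38-Ova over B16-Ova ratio lay on opposite sides of 1 in 2 classes, with counting intervals that exclude 1 in each, for 4 of the genes named: Atp5g2 (0.906 in CD8 and 1.14 in CD4 cells), Cox8a (0.958 in CD8, 1.04 in Treg and 1.14 in CD4 cells), Ndufs5 (0.890 in CD8 and 1.21 in CD4 cells) and Uqcr11 (0.873 in CD8 and 1.21 in CD4 cells). The medians over the nuclear genes did the same, at 0.917 in CD8 and 0.972 in Treg cells against 1.029 in CD4 cells. With 1 pool per tumour these differences were not tested.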

How the results depend on the processing

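The number of nuclear chain genes called moved with most settings, while their median log2 fold stayed positive in CD8 against CD4 and CD8 against Treg cells under all of them. The numbers called were 2 in CD8 against CD4, 0 in Treg against CD4 and 8 in CD8 against Treg cells. They were 6 in CD8 against CD4 cells with DESeq2, and 19 and 19 (CD8 against CD4, CD8 against Treg) without a filter on low counts. Without the replicate block (no pool term) they were 0 and 1, and with plain library totals 0 and 2. CD8 against CD4 cells had 1 with library totals without mt- and ribosomal protein genes, and 1 with at most 5% mt- UMIs. A hashtag of at least 300 UMIs and 5 times the other gave 0 and 5. Without the 5% of cells with most RNA UMIs the 3 comparisons had 17, 1 and 26, without cycling cells 5, 3 and 27, in cells thinned to 3000 UMIs 4, 2 and 17, and in cells matched on RNA UMIs 0, 1 and 3. The stricter class rule gave 1 in Treg against CD4 cells. The share of all genes called under each setting is not set beside these counts or those of the tag comparisons below. That share can move with the setting too, so a changed count is not read as particular to the chain genes. The medians with plain totals were 0.15 in CD8 against CD4 and 0.10 in CD8 against Treg cells, and in matched cells 0.050, -0.015 and 0.11. In Treg against CD4 cells the median was -0.015 without cycling cells, and 0.035 to 0.11 with 1 pool left out.

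L-Pha quartiles within deciles of RNA UMIs gave medians of -0.028, -0.089 and -0.070 in CD8, Treg and CD4 cells and no call in CD4 cells (0), and PD-1 quartiles within deciles 0.0097. In Treg cells the count of 0 became 11 without a filter, 5 with terciles of the tag, 1 without cycling cells and 1 in thinned cells. Their median was 0.24 without a filter, 0.089 without cycling cells and 0.091 in thinned cells. The 4 calls in CD4 cells became 0 with DESeq2, 2 without a filter, 0 without the replicate block, 2 with plain totals, 0 without cycling cells and 0 in thinned cells. Their median was 0.21 without a filter, 0.18 with plain totals, 0.18 with terciles, 0.12 without cycling cells and 0.12 in thinned cells. With 1 pool left out it was 0.14 to 0.33 in CD8 (0.14 without B16-Ova), 0.20 to 0.23 in Treg and 0.18 to 0.19 in CD4 cells. PD-1 gave 2 calls without a filter and 1 in thinned cells, and a median of 0.23 with plain totals.

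Between the tumours, the genes past the fold were 5 in CD8, 4 in Treg and 4 in CD4 cells. In CD8 cells they became 9 with the stricter hashtag, 8 with the stricter class rule, 2 without cycling cells, 2 in matched cells and 10 with totals without mt- and ribosomal protein genes. In Treg cells they became 7 with the stricter class rule, 7 without the cells with most RNA UMIs, 7 in thinned cells and 2 at 500 UMIs or more, and in CD4 cells 0 at 500 UMIs or more. The median ratio in CD8 cells was 1.007 without cycling cells and 1.015 in matched cells. Ndufaf2 in Treg cells turned to 1.14 in matched cells.

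The summed share, 2.45% in CD8, 2.30% in Treg and 2.20% in CD4 cells as means of the pools, was 2.20%, 2.11% and 2.10% without cycling cells and 3.46%, 2.98% and 2.96% of UMIs outside mt- and ribosomal protein genes. In thinned cells it was 2.33% in CD8 and 2.21% in Treg cells, in matched cells 2.22% in CD8 and 2.22% in Treg cells, and without the cells with most RNA UMIs 2.25% in Treg cells. The causes of these changes were not tested beyond what each setting leaves out. Leaving out a pool leaves no residual spread, so folds without 1 pool have no test. Of the values for single genes and for the mt- genes under these settings, 543 kept their direction and side of the threshold or stayed within their interval, 94 kept their direction but missed the threshold, 69 moved further and 1 turned round. The main counts, medians and shares of the nuclear genes were less steady: 172 of their values under these settings were graded as the same and 82 as moved. Depth limits the restricted isoforms and the CD4 sums most.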
